A study of Chlorocebus aethiops vervet with 14 samples.

Results

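Laser-captured neuronal cell bodies of the magnocellular layers of the lateral geniculate nucleus (M neurons, 3 arrays) were compared with captures of the whole magnocellular layers (M layers, 3 arrays). These 6 of the 14 arrays of the series were chosen by their titles. All animals were normal adult male vervet monkeys, with 3 animals behind each group, and no group carried a transgene or a treatment. The labels do not state whether the same 3 animals supplied both groups, so the p-values below measure the spread between these captures. Cells were recognised by cresyl violet, a stain of cell bodies, and the RNA collected by many laser pulses a sample was amplified in 2 rounds. The RNA was then hybridised across species to the Rhesus Macaque Genome Array. A layer capture was a mixture of neuronal cell bodies, neuropil and glia, so it held the captured cell type as well as its surroundings. The 3 P neuron and 3 P layer arrays were the same captures from the parvocellular layers. They entered the estimate of the spread, the signal filter and the choice of each gene's brightest probe set. They also entered the fit with instrument station below, and were set beside M with a test of the M minus P difference.

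Retinal signals reach the visual cortex through a thalamic relay, the lateral geniculate nucleus. Large relay cells with thick axons and fast firing fill its magnocellular layers, with local inhibitory interneurons between them. Around the cell bodies lie astrocytes, which clear glutamate and potassium, oligodendrocytes, which make myelin, microglia, the resident immune cells, and blood vessels. A large cell body holds much of the machinery for making and breaking down protein and for supplying energy, while part of the RNA of neuropil lies in dendrites and glial processes.

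Levels are MAS5 signals on a linear scale after each array was scaled to the same median. Over the 12 rhesus arrays the medians as deposited lay between 11.9 and 14.8, with a highest signal of 12180. Across probe sets, which are not independent replicates, arrays of one M group correlated at 0.968 to 0.975, and M neuron with M layer arrays at 0.943 to 0.964. Differences are M neurons minus M layers on the log2(signal + 16) scale, which understates the change of dim genes, and are given ± the standard error (SE) of the limma fit with n = 3 a group. A gene was called when its adjusted p from limma was under 0.05 over all 26383 probe sets tested, and it is represented by its brightest probe set. Both groups carried a marker of large neurons, which did not separate them. NEFH, the heavy neurofilament subunit of large neurons, read 9203, 10009 and 9045 in M neurons and 9467, 8086 and 8639 in M layers, close to the top of the scale in both and without a call (0.11 ± 0.08, adjusted p = 0.411). The M neuron arrays were not free of glial signal. MBP, a main protein of myelin, read 5851, 4554 and 4644 in M neurons against 6649, 5613 and 5323 in M layers.

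More genes were higher in the cell bodies than lower. In M neurons 2564 probe sets were higher (9.72%) and 995 lower (3.77%), together 3559 of the 26383 tested (13.5%). By gene, 1705 of 10032 were called (17%), 1250 higher (12.5%) and 455 lower (4.54%). All 3 M neuron arrays lay above all 3 M layer arrays for 2443 genes (24.4%) and below them for 890 (8.87%). The median difference over all tested genes was 0.13 on the log2 scale. The excess of higher calls depended on the scaling: 72% of the called probe sets were higher here, and 48% of 3053 after quantile normalization. Without M_neuron 3 the count of called genes was 1088, and without M_layer 1 it was 1111. The direction of all 1705 genes was unchanged in both, which says little because they were called on these same arrays.

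The instrument records place all 3 M neuron arrays on fluidics station 3 and the M layer arrays on stations 4, 4 and 5. The P neuron arrays were on stations 3, 4 and 4 and the P layer arrays all on station 5. Within M and within P the station and the capture therefore cannot be told apart. A fit with station as a block can be had only because the M and P arrays together link the stations. In that fit 99 genes were called, 26 higher and 73 lower, and 93 of them were among the 1705. The direction held for 1698 of the 1705. The SE became 1.91 times as wide (median), while the difference was 0.926 times as large for the genes called higher and 1.22 times for those called lower (medians). With station as a block 0 members were called in 24 of the 35 gene lists, and calls that held in the others are given below.

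**Figure D1:**
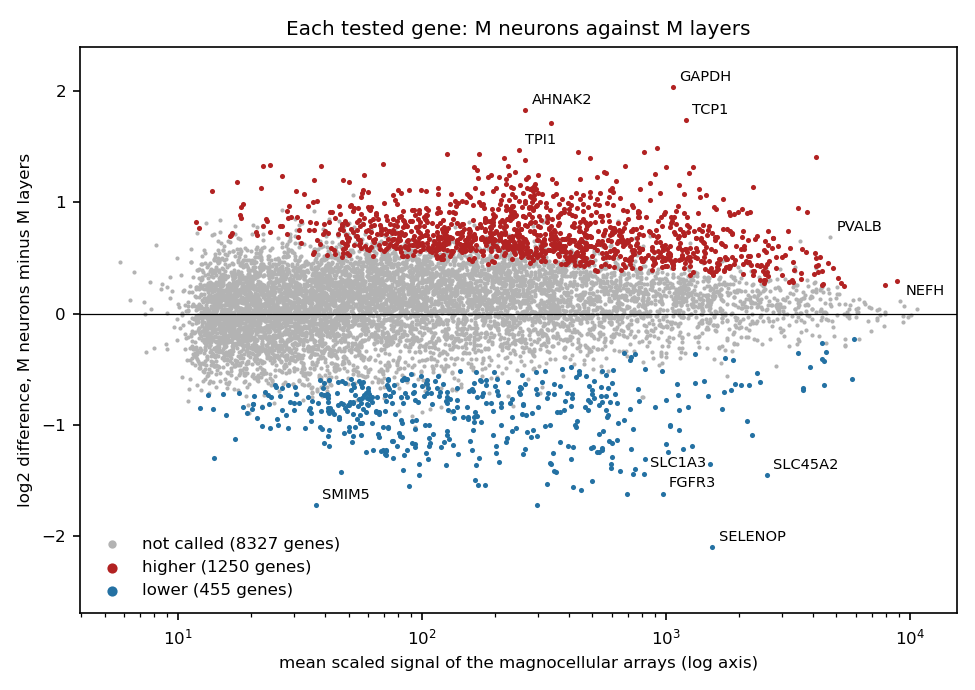
Each point is 1 of 10032 tested genes, with the mean scaled signal of the magnocellular arrays on a log axis against the log2 difference of M neurons minus M layers. The 1250 genes called higher (red) lie mostly at moderate to high signal, the 455 called lower (blue) reach -2.10 at SELENOP, and NEFH and PVALB at the right edge were not called.

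The gene with the highest difference in the cell bodies was GAPDH, a glycolytic enzyme. Its signal was 2142, 1291 and 1788 in M neurons and 354, 379 and 484 in M layers. The lowest neuron array stood well above the highest layer array, a difference of 2.04 ± 0.19 or 4.12-fold (adjusted p = 1.28e-05). TCP1, a subunit of the chaperonin that folds actin and tubulin, read 1663, 1659 and 2301 against 495, 567 and 566, again with no overlap (1.74 ± 0.15, adjusted p = 9.08e-06). AHNAK2, a very large scaffold protein, stood at 449, 440 and 377 against 115, 83.6 and 126 (1.83 ± 0.18, adjusted p = 2.55e-05). RUFY3, a neuronal protein of axon growth and vesicle transport, read 646, 572 and 361 against 106, 143 and 198 (1.72 ± 0.29, adjusted p = 0.000941), with more spread in both groups than the others.

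Proteins of the mitochondrion made up several of the next genes. NDUFV1, a subunit of respiratory complex I, read 1404, 1094 and 1587 in M neurons against 509, 416 and 490 (1.49 ± 0.16, adjusted p = 4.82e-05). UQCRC2, a core subunit of complex III, stood at 1.40 ± 0.18, and PHB1, prohibitin of the inner mitochondrial membrane, at 1.45 ± 0.22. The PHB1 arrays read 477, 530 and 961 against 180, 244 and 236, so M_neuron 3 was by far the highest of the 6. TPI1, the glycolytic triosephosphate isomerase, differed by 1.47 ± 0.16.

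Membrane traffic, protein turnover and signalling were also represented. AP2M1, the medium subunit of the clathrin adaptor of endocytosis, read 1263, 1060 and 1258 against 329, 414 and 563 (1.45 ± 0.17, adjusted p = 7.08e-05). NEDD4L, a ubiquitin ligase that acts on sodium channels and other membrane proteins, read 661, 718 and 772 against 247, 234 and 305 (1.40 ± 0.16). DNAJC7, a cochaperone, differed by 1.33 ± 0.23, with 947, 1009 and 946 against 313, 297 and 562. RAPGEF4, a cAMP-activated exchange factor for Rap, was dim, at 84.1, 32.6 and 71.5 against 17.9, 17.7 and 7.35 (1.33 ± 0.27). The other 3 of the 15 highest genes were MIS12, a kinetochore protein (1.44), WDR74, a ribosome biogenesis factor (1.38), and CCDC6, a coiled-coil protein (1.35). Adjusted p-values of all 30 genes highest or lowest in M neurons were at most 0.00401. The next gene left out of the highest 15 was EXOSC4 at 1.33. With station as a block GAPDH, AHNAK2, TCP1, AP2M1 and MIS12 kept their calls and the other 10 did not, although all kept their direction.

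**Figure D2:**
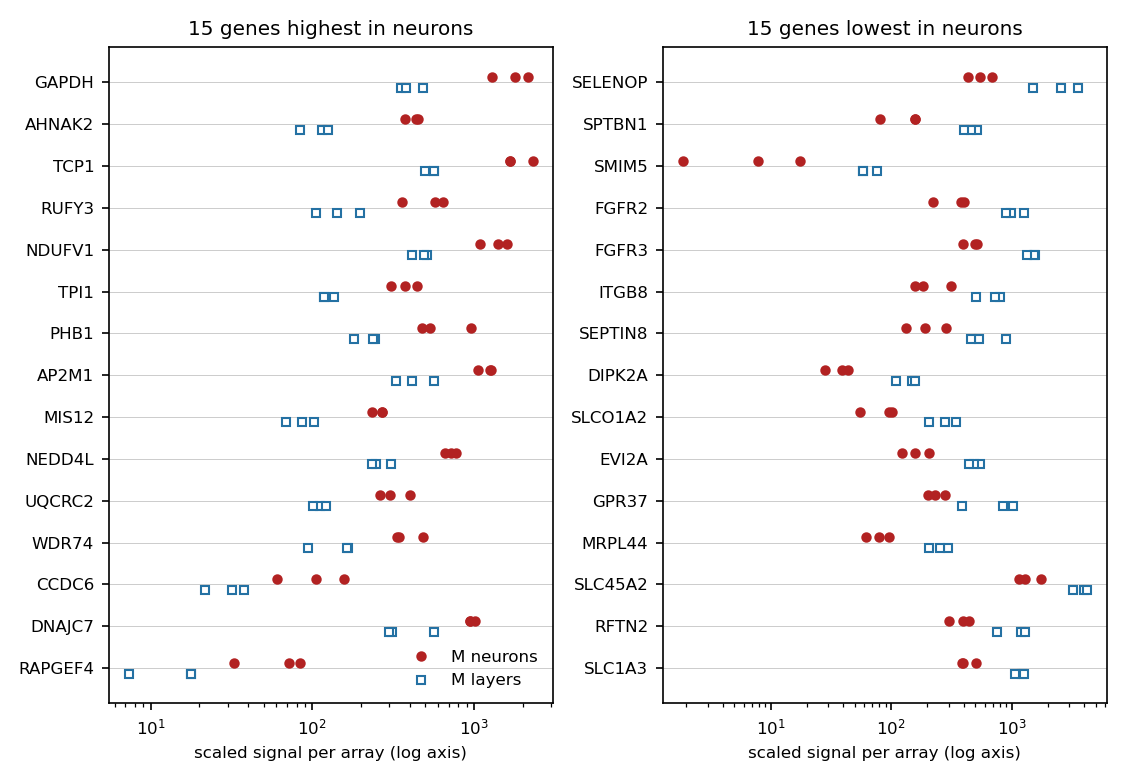
Scaled signal on a log axis in each M neuron array (filled circles) and each M layer array (open squares) for the 15 called genes with the highest and the 15 with the lowest difference. In every row the 3 neuron arrays and the 3 layer arrays do not overlap, which the choice of these genes required.

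RNA signal of most tested genes of energy metabolism was called higher in the cell bodies. Glycolysis had 8 of 12 tested members higher and 0 lower, with a median of 0.61 against 0.13 over all genes. ALDOA, the muscle-type aldolase, read 4897, 4780 and 4061 in M neurons against 2441, 2253 and 2381 (0.95 ± 0.09, adjusted p = 1.98e-05), and PKM, pyruvate kinase, stood at 1.29 ± 0.20. For oxidative phosphorylation 29 of 51 members were higher and 1 lower, with a median of 0.51. NDUFS3, another subunit of complex I, read 1783, 1750 and 2409 against 936, 944 and 905 (1.06 ± 0.13, adjusted p = 0.000102). NDUFV2, from the same complex, differed by 0.76 ± 0.10 on its brighter probe set, and by 0.24 (adjusted p = 0.175) as the mean over its 2 probe sets. ATP5MC1, a subunit of the ATP synthase ring, was the lone member lower (-0.96) and is named after its values were seen. After quantile normalization 8 of 12 glycolytic and 23 of 51 oxidative phosphorylation genes were higher, with medians of 0.43 and 0.33. With station as a block 2 glycolytic genes were higher, and 0 of the oxidative phosphorylation genes were higher and 1 lower, with medians of 0.52 and 0.43.

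The proteasome, the complex that degrades ubiquitinated proteins, had most of its tested members higher in the cell bodies. Of 22 tested subunits 18 were higher and 0 lower, all 22 differences were above 0, and the median was 0.66. PSMB1, from the catalytic core, read 1116, 1301 and 1450 in M neurons against 694, 743 and 609 (0.90 ± 0.13, adjusted p = 0.000305). PSMC5, an ATPase of the regulatory cap, read 1864, 1652 and 2219 against 1002, 1087 and 1199 (0.79 ± 0.12, adjusted p = 0.000607). PSMD2 and PSMD8, further cap subunits, stood at 0.99 ± 0.17 and 0.96 ± 0.17. After quantile normalization 10 members were higher with a median of 0.50, and with station as a block 0 were called with a median of 0.63.

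Among chaperones 12 of 26 members were higher and 1 lower, with a median of 0.39. STIP1, which links the Hsp70 and Hsp90 chaperones, read 205, 195 and 200 against 83.1, 93.1 and 96.7 (1.02 ± 0.15, adjusted p = 0.000407). CCT7, a chaperonin subunit like TCP1, differed by 1.13 ± 0.21, with M_neuron 3 at 253 and the other neuron arrays at 126 and 125. The lone lower member, named after its values were seen, was HSPA8, the constitutive Hsp70 (-0.43). Without M_neuron 3 or without M_layer 1 the count of higher chaperones was 7, as after quantile normalization, and with station as a block it was 1.

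Genes of RNA processing and protein synthesis were less uniform. Of 24 splicing and nuclear RNA-binding genes 9 were higher and 2 lower, with a median of 0.21. HNRNPU, an abundant nuclear RNA-binding protein, differed by 1.00 ± 0.20 and SNRPD3, a core protein of the spliceosome, by 0.78 ± 0.16. The lower members, named after their values were seen, were SF3A1 (-0.68) and HNRNPA1 (-0.39). The count of higher splicing genes was 5 without M_neuron 3, without M_layer 2 or without M_layer 3, 5 from the 6 M arrays alone, 4 after quantile normalization and 0 with station as a block. Both lower calls ended without M_neuron 1, M_neuron 2, M_layer 1 or M_layer 2. Cytosolic ribosomal proteins had 7 of 33 higher and 1 lower, but a median of only 0.05, which was -0.07 after quantile normalization (5 higher, 6 lower). RPL8 read 579, 573 and 761 against 336, 332 and 286 (0.96 ± 0.14, adjusted p = 0.000393) and RPL13 differed by 1.00 ± 0.18, and 0 of the 33 were called with station as a block. Rough endoplasmic reticulum genes had 6 of 24 higher and 0 lower (median 0.21), with 0 called without M_neuron 3, 1 without M_layer 1, 3 without M_layer 2, and 0 after quantile normalization or with station as a block.

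**Figure D3:**
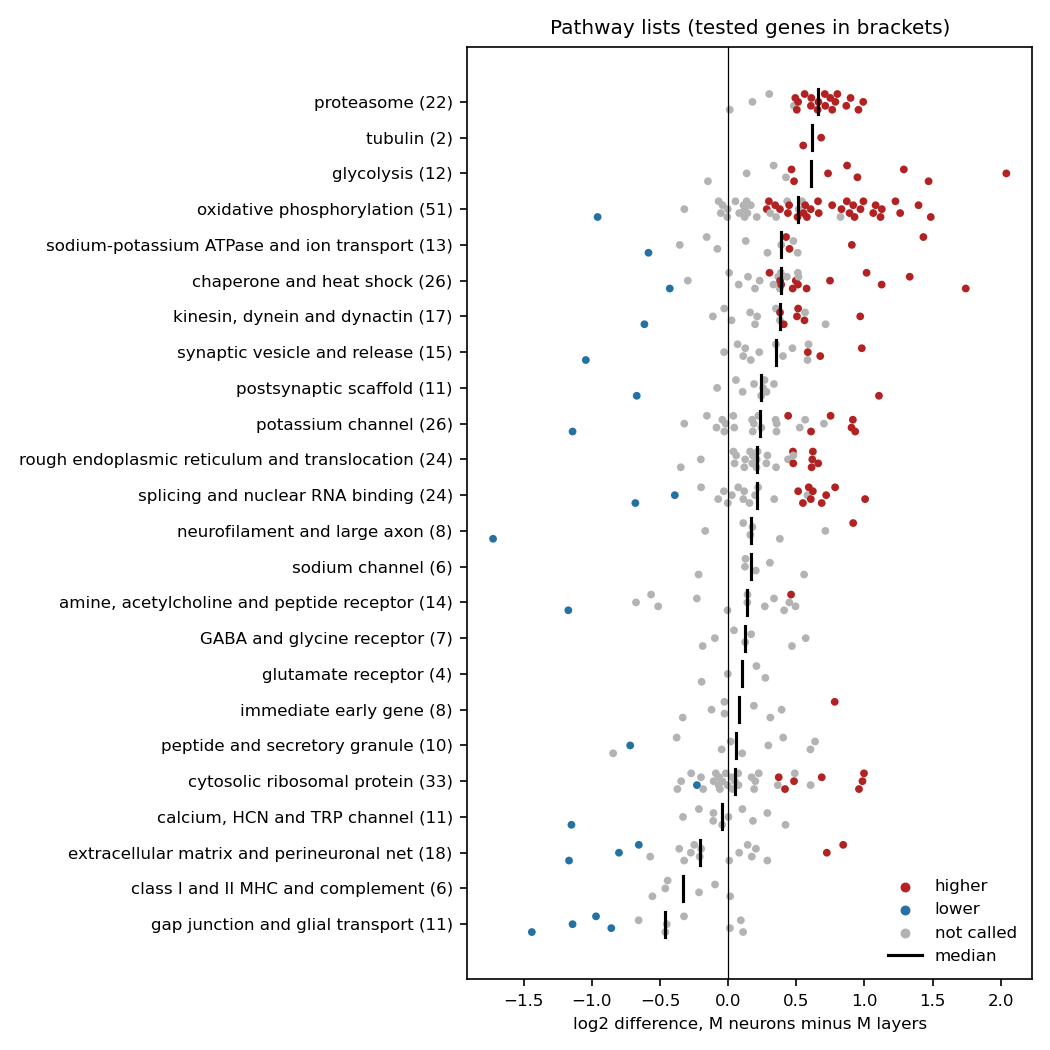
Log2 difference of M neurons minus M layers for every tested member of each pathway list, with called members in red (higher) or blue (lower), others in grey, and the list median as a black bar. Proteasome, tubulin, glycolysis and oxidative phosphorylation have the highest medians, from 0.51 to 0.66, and gap junction and glial transport genes the lowest, at -0.46. The tubulin median rests on 2 tested genes of 10 listed.

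Of 13 tested pan-neuronal genes 6 were higher in the cell bodies, 0 lower and 7 not called, with a median of 0.27, and their summed signal was 33095 to 36393 in M neurons against 27508 to 29948 in M layers. RTN1, a reticulon of the endoplasmic reticulum, read 351, 330 and 376 against 120, 152 and 178 (1.16 ± 0.16, adjusted p = 0.000239). TUBB3, the neuronal beta tubulin, read 3533, 3378 and 3263 against 2244, 1917 and 2170 (0.68 ± 0.10, adjusted p = 0.000397), and its fellow tubulin TUBA4A differed by 0.55 ± 0.10. ENO2, the neuronal enolase, stood at 0.87 ± 0.14, and STMN3, a stathmin that acts on microtubules, at 0.70 ± 0.13. SYT1, the calcium sensor of transmitter release, did not differ on its brightest probe set (-0.03 ± 0.07, adjusted p = 0.841), but its mean over 4 probe sets stood at 0.53 (adjusted p = 0.00365). None of the pan-neuronal calls held with station as a block (0 called, median 0.30).

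Of 6 tested genes that mark thalamic relay cells 2 were higher, 5 differences were above 0 and 1 below. The gene below was PRKCD, a protein kinase C, at -0.60 (limma adjusted p = 0.0886). It was called lower with the replicate number as a block (adjusted p = 0.0401). NTNG1, netrin-G1, an adhesion protein of thalamocortical axons, read 3334, 3444 and 3619 in M neurons against 2262, 2179 and 2374 (0.61 ± 0.08, adjusted p = 0.000209). TCF7L2, a transcription factor of thalamic neurons, read 5178, 4814 and 4187 against 3948, 3447 and 3540 (0.37 ± 0.09, adjusted p = 0.00973). Without M_neuron 1 the TCF7L2 call ended (0.30, adjusted p = 0.0501), and as the mean over its 6 probe sets it was 0.14 (adjusted p = 0.401). PVALB, the calcium buffer parvalbumin, read 6231, 6760 and 3852 against 5623, 4289 and 1603, so the groups overlapped and replicate 3 was the lowest of each. Its difference of 0.69 ± 0.34 was not called (adjusted p = 0.217), was called with the replicate number as a block (adjusted p = 0.00655), and was -0.40 with station as a block. In that fit 0 of the 6 relay genes were called, with NTNG1 at 0.67 (adjusted p = 0.0666) and TCF7L2 at 0.29 (adjusted p = 0.474).

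Genes of the axon and its transport differed in both directions. SPP1, osteopontin, a secreted phosphoprotein found in large neurons, read 3896, 5047 and 5859 in M neurons against 2016, 2674 and 3143 in M layers. All neuron arrays lay above the layer arrays (0.92 ± 0.18, adjusted p = 0.00245), and the call held with station as a block, at 1.62 (adjusted p = 0.0176). MAP1B, a microtubule-binding protein of axons, stood at 0.71 ± 0.30 (adjusted p = 0.136) and was called with the replicate number as a block (adjusted p = 0.0366). Among motor proteins 6 of 17 were higher and 1 lower, with a median of 0.38. DCTN3, a subunit of dynactin, the activator of dynein, differed by 0.51 ± 0.11 (adjusted p = 0.00648). KIF5B, the broadly expressed kinesin heavy chain, was the lower member, at 2008, 1869 and 1847 against 3390, 3035 and 2439 (-0.61 ± 0.11, adjusted p = 0.00109), and it kept its call with station as a block, but not as the mean over its 2 probe sets (-0.34, adjusted p = 0.0945). The count of higher motor genes was 2 without M_neuron 1, without M_neuron 3 or without M_layer 2, 3 without M_layer 1, 2 after quantile normalization, without scaling or from the 6 M arrays alone, and 0 with station as a block.

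Calls among ion channels fell mostly on potassium channels. Of 26 tested potassium channel genes 6 were higher (23.1%) and 1 lower (3.85%), against 12.5% and 4.54% of all genes. KCNA2, a subunit of axonal delayed rectifiers, read 4992, 4782 and 4700 in M neurons against 3898, 3520 and 3261 (0.44 ± 0.09, adjusted p = 0.00328). KCNAB1, a beta subunit that associates with such channels, read 775, 808 and 734 against 383, 486 and 495 (0.75 ± 0.13, adjusted p = 0.00144), and KCNA4, a subunit of A-type channels, stood at 0.92 ± 0.20. The lower member was KCNJ10, the inward rectifier through which astrocytes take up potassium, at 456, 306 and 410 against 906, 841 and 865 (-1.14 ± 0.18, adjusted p = 0.00061). KCNJ10 was the only one of these 26 called with station as a block. Of 6 sodium channel genes 0 were called by limma on the brightest probe set, with 2 at an unadjusted p under 0.05 (SCN1A and SCN2A), and in both the dimmer of their 2 probe sets was called higher. SCN1A stood at 0.31 ± 0.12 (adjusted p = 0.0988), and at 0.44 (adjusted p = 0.00888) as the mean over its probe sets. SCN2A stood at 0.56 ± 0.24 (adjusted p = 0.14) and was called with the replicate number as a block (adjusted p = 0.0257).

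Of 24 listed glutamate receptor genes 4 were tested, and of 19 listed GABA and glycine receptor genes 7. None of either was called by limma, against 17% of all genes, with 0 and 2 having an unadjusted p below 0.05. So few genes cannot show a shortage of calls. Of 14 receptors for amines, acetylcholine and peptides, CHRNA7, the alpha7 nicotinic receptor subunit, was lower, at 669, 541 and 618 against 1478, 1508 and 1201 (-1.17 ± 0.16, adjusted p = 0.000205). Its 4 probe sets disagreed, with 3 lower and 1 higher. CHRM3, a muscarinic receptor, was the higher member (0.46 ± 0.15, adjusted p = 0.0464), and its call ended when any 1 of the 6 M arrays was left out (adjusted p from 0.0537 to 0.171) and with station as a block. The vesicle list had 3 of 15 higher (20%) and 1 lower (6.67%), against 12.5% and 4.54% of all genes. SV2B, a vesicle glycoprotein, read 3650, 3065 and 3396 against 1969, 2128 and 2205 (0.68, SE 0.115, adjusted p = 0.00101), while SYPL1, a relative of synaptophysin found outside neurons too, fell by 1.04 on the log2 scale (SE 0.17). CAMK2B, the beta subunit of a calcium-calmodulin kinase, was higher by 1.11 ± 0.14 (adjusted p = 0.000129) and DLG1, a membrane scaffold, was lower (-0.67 ± 0.15). ATP2B3, a plasma membrane calcium pump, stood at 0.91 ± 0.19 and SLC24A3, a potassium-dependent sodium-calcium exchanger, at 0.42 ± 0.09. They were among 4 of 13 ion transport genes called higher (30.8%), with 1 lower (7.69%). With station as a block CHRNA7 and SYPL1 kept their calls, and SV2B, CAMK2B, DLG1, ATP2B3 and SLC24A3 did not (adjusted p from 0.0911 to 0.465). Of 10 genes of peptides and secretory granules 0 were higher and 1 lower, but with the replicate number as a block 4 were higher and 2 lower. Among them CHGB, a granin of secretory granules, stood at 0.64 (adjusted p = 0.00284 with that block), and PCSK1N, an inhibitor of a peptide-processing enzyme, at 0.60 (adjusted p = 0.0308 with it).

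Genes lower in the cell bodies had more signal in the whole layer, which also holds glia, vessels and neuropil. In bulk captures fewer cells of a type and less RNA per cell cannot be told apart. SELENOP, a secreted protein that carries selenium, had the lowest difference, with 682, 439 and 544 in M neurons against 3556, 2572 and 1510 in M layers. The groups did not overlap although the layer arrays spread widely, and the layers were 4.30-fold higher (-2.10 ± 0.24, adjusted p = 5.41e-05). FGFR3, a growth factor receptor of astrocytes, read 395, 515 and 499 against 1554, 1529 and 1332 (-1.62 ± 0.13, adjusted p = 8.77e-06), with little spread in either group. FGFR2, from the same receptor family, read 403, 224 and 384 against 1273, 982 and 905 (-1.63 ± 0.20, adjusted p = 7.61e-05).

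SLC1A3, the glutamate transporter GLAST of astrocytes, read 502, 398 and 389 against 1224, 1275 and 1072 (-1.44 ± 0.17, adjusted p = 6.19e-05). ITGB8, an integrin subunit, read 184, 159 and 316 against 801, 723 and 508 (-1.59 ± 0.21), and SLCO1A2, an organic anion transporter of brain vessels and glia, stood at -1.55 ± 0.21. GPR37, a receptor enriched in oligodendrocytes, read 282, 203 and 231 against 1020, 857 and 392 (-1.51 ± 0.27, adjusted p = 0.00153), with M_layer 3 far below the other layer arrays. EVI2A, a membrane protein counted among oligodendrocyte markers, read 157, 124 and 205 against 543, 488 and 441 (-1.53 ± 0.20). SLC45A2, a transporter best known from pigment cells, was among the brighter ones, at 1741, 1144 and 1294 against 3971, 4215 and 3234 (-1.45 ± 0.15, adjusted p = 3.27e-05).

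The rest of the 15 lowest were SPTBN1, a beta spectrin (-1.73), SMIM5 (-1.72), the septin SEPTIN8 (-1.56), DIPK2A (-1.56), MRPL44, a mitochondrial ribosomal protein (-1.50), and the raft protein RFTN2 (-1.44). SMIM5 was near the bottom of the scale in M neurons, at 1.88, 17.5 and 7.81 against 58.3, 58.7 and 76.5 in M layers, so its size rests on the pseudocount. For 2 of these genes the probe sets disagreed. SPTBN1 had 3, of which 1 was lower and 1 higher, and its mean stood at -0.41 (adjusted p = 0.0613), while MRPL44 had 3, of which 1 was called, and its mean stood at -0.09 (adjusted p = 0.812). The next gene left out was TMEFF1 at -1.43. All but SMIM5, 14 of the 15, kept their calls with station as a block.

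Astrocyte markers were lower in the cell bodies for 8 of 16 tested genes and higher for 1, against 4.54% and 12.5% of all genes, with a median of -0.69. Their summed signal was 12523 to 15407 in M neurons and 17556 to 21959 in M layers, without overlap. GFAP, the astrocyte intermediate filament, read 945, 551 and 572 against 1920, 1190 and 1085 (-1.002 ± 0.22, adjusted p = 0.00642), but as the mean over its 2 probe sets it stood at -0.24 (adjusted p = 0.376). HEPACAM, an adhesion protein of astrocytes, read 88.3, 70.3 and 68.9 against 218, 178 and 183 (-1.19 ± 0.16, adjusted p = 0.000205). SLC1A2, the main glutamate transporter of astrocytes, read 1347, 902 and 1381 against 2542, 2007 and 1994 (-0.86 ± 0.16, adjusted p = 0.00173). The lone higher member, named after its values were seen, was ALDOC, the brain aldolase (0.46), which is also a glycolytic enzyme. Station as a block left 4 astrocyte genes lower and 0 higher, with a median of -0.80.

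Oligodendrocyte and myelin markers were lower for 10 of 20 genes and higher for 1, with a median of -0.61. Their summed signal was 11949 to 13949 in M neurons and 15254 to 19203 in M layers. UGT8, an enzyme of myelin lipid synthesis, read 462, 361 and 454 against 1184, 983 and 879 (-1.22 ± 0.13, adjusted p = 4.82e-05). ENPP2, the secreted enzyme autotaxin, read 921, 615 and 561 against 2025, 1616 and 1291 (-1.22 ± 0.19, adjusted p = 0.000461). MBP was much closer between the groups and was not called (-0.23 ± 0.12, adjusted p = 0.245), though it was with the replicate number as a block (adjusted p = 0.0262). CNDP1, a carnosine-cleaving enzyme, was the lone higher member (0.65) and is named after its values were seen. Station as a block left 5 lower and 0 higher. Of 7 markers of oligodendrocyte precursors 2 were lower, VCAN, the proteoglycan versican (-1.17 ± 0.26), and SOX6, a transcription factor (-0.88 ± 0.20), and neither call held with station as a block. Gap junction and glial transport genes, which overlap the astrocyte list, had 4 of 11 lower and 0 higher (median -0.46), and 2 lower with station as a block.

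**Figure D4:**
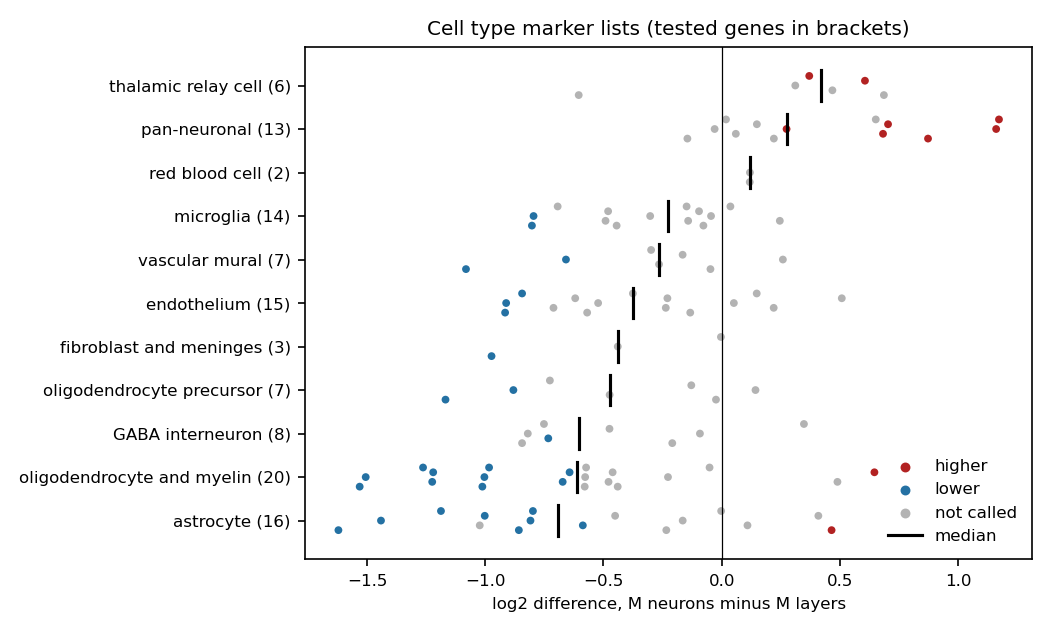
Log2 difference of M neurons minus M layers for every tested gene of each cell type marker list, with called genes in red (higher) or blue (lower), others in grey, and the median as a black bar. Astrocyte and oligodendrocyte genes have medians of -0.69 and -0.61, and the pan-neuronal and thalamic relay lists lie on the other side at 0.27 and 0.42.

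Vessel markers were lower in fewer cases. Of 15 endothelial genes 3 were lower (20%, against 4.54% of all genes) and 0 higher (against 12.5%), with a median of -0.38. Their summed signal was 1070 to 1290 in M neurons against 1734 to 2207 in M layers. SLC2A1, the glucose transporter of the blood-brain barrier, read 398, 370 and 414 against 697, 721 and 864 (-0.92 ± 0.14, adjusted p = 0.000393). ITM2A, a membrane protein of endothelium, stood at -0.84 ± 0.20 (adjusted p = 0.00815). CLDN5, the tight junction protein that defines this endothelium, overlapped between the groups, at 52.8, 30.4 and 58.3 against 49.1, 63.8 and 83.7 (-0.38 ± 0.21, adjusted p = 0.267). VWF, the other called member (-0.91, limma adjusted p = 0.0345), lost its call when any 1 M array but M_neuron 1 was left out. The endothelial count was 6 after quantile normalization, 5 with the replicate number as a block, and 5 of 7 tested under the stricter signal filter. It was 4 without M_neuron 3, and 2 without M_neuron 2, M_layer 2 or M_layer 3. With no signal filter or a pseudocount of 1 it was 2, and with station as a block 0. Of 7 genes of mural cells 2 were lower (28.6%) and 0 higher, and of the 2 tested genes of red blood cells 0 were called. The mural genes were KCNJ8, a potassium channel of pericytes (-1.08), and NOTCH3, a receptor of vascular smooth muscle (-0.66). As the mean over its probe sets NOTCH3 stood at -0.27 and was not called (limma adjusted p = 0.315). The mural count was 0 without M_layer 2 or with station as a block, and 1 without M_neuron 3 or without M_layer 3.

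Microglial markers lay mostly below 0, by less than those of astrocytes and oligodendrocytes. Of 14 genes 2 were lower (14.3%, against 4.54% of all genes) and 0 higher (against 12.5%). The median was -0.23, against 0.13 over all genes, and 12 of the 14 differences were below 0. Their summed signal overlapped, at 1401 to 1892 in M neurons and 1538 to 1643 in M layers. PTPRC, a leukocyte surface phosphatase (-0.80 ± 0.22, adjusted p = 0.0209), and P2RY12, a purine receptor of resident microglia (-0.80 ± 0.24, adjusted p = 0.0369), were both dim. Without M_neuron 2 or without M_layer 1 neither was called, and without M_neuron 3 or without M_layer 2 only P2RY12 was. Without M_neuron 1 PTPRC kept its call and P2RY12 did not, while ITGAM, another member, was called lower (-0.69, limma adjusted p = 0.0407). With no signal filter or with station as a block 0 were called. AIF1 and CSF1R, which also define microglia, were not called (-0.04 ± 0.22 and -0.49 ± 0.22).

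Markers of GABA interneurons lay mostly below 0 without passing the test. Of 8 genes 1 was lower (12.5%, against 4.54% of all genes) and 0 higher (against 12.5%), with a median of -0.60. The summed signal did not overlap, at 492 to 1040 in M neurons and 1112 to 1631 in M layers. GAD1, a GABA-synthesising enzyme, read 816, 308 and 738 against 1262, 744 and 982 (-0.75 ± 0.29, adjusted p = 0.0959). It was called with the replicate number as a block (adjusted p = 0.0145), as was the neuropeptide NPY (-0.84 ± 0.35, adjusted p = 0.124, blocked 0.00482), which brought the count to 3. GATA3, a transcription factor, was the called member (-0.73 ± 0.21, adjusted p = 0.0276). Its call ended without M_neuron 2 (adjusted p = 0.103), M_neuron 3 (0.0507), M_layer 1 (0.106) or M_layer 3 (0.0745). Without M_neuron 1 the count of lower genes was 3, with GAD1 (limma adjusted p = 0.0397) and DLX1 (0.0435) called too. After quantile normalization it was 2, and with no signal filter, without scaling or with station as a block 0 of the 8 were called. No tested member of any marker list read 0 on an M array, and AQP4, RBFOX3, SNAP25 and SLC17A6 were not analysed here.

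In the extracellular matrix list 2 of 18 genes were higher (11.1%, near the 12.5% of all genes) and 3 lower (16.7%, against 4.54%). HAPLN4, a link protein of the perineuronal net around large neurons, read 234, 210 and 267 in M neurons against 123, 124 and 126 in M layers (0.84 ± 0.17, adjusted p = 0.00288). COL5A2, a fibrillar collagen chain, stood at 0.72 ± 0.14 on its brightest probe set, and at 0.22 (adjusted p = 0.266) as the mean over 4. ACAN, the core proteoglycan of perineuronal nets, went the other way (-0.66) and is named after its values were seen. In the remaining lists 1 of 8 immediate early genes was higher (12.5%, the share over all genes). Lower were 1 of 11 calcium, HCN and TRP channel genes (9.09%) and 1 of 3 fibroblast genes (33.3%), against 4.54% of all genes. Of 6 genes of antigen presentation and complement 0 were called by limma, with 2 at an unadjusted p under 0.05. The first count was 0 without M_neuron 3 or M_layer 1, the second without M_layer 1, the third without M_neuron 1, M_neuron 2 or M_layer 2, and all were 0 with station as a block. For the matrix list, the lower count was 1 without M_layer 3, and none of the 18 was called with station as a block.

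Set beside the P arrays, the neuron-layer difference had the same sign for 1685 of the 1705 genes called in M. The share of all tested genes with the same sign is not given here. Their median difference was above 0 in both, at 0.13 in M and 0.19 in P. Against P layers, P neurons had 3421 higher (13%) and 528 lower (2%) probe sets, together 3949 (15%). There too the excess of higher calls depended on the scaling, with 86.6% of called probe sets higher, and 51.5% of 2205 after quantile normalization. By gene, 1888 were called in P (18.8%), and 934 were higher in both, which is 74.7% of the 1250 in M and 56.6% of the 1651 in P (16.5% of genes). Lower in both were 185, or 40.7% of the 455 in M and 78.1% of the 237 in P (2.36% of genes), and 0 genes were called in opposite directions by limma. M and P share no array, but all entered one estimate of the spread, and in both the neuron and layer arrays ran on different stations. The part of the station in this likeness was not tested. GAPDH differed by 2.06 ± 0.19 in P, and TCP1 by 1.79 ± 0.15, against 2.04 and 1.74 in M. Of the 15 highest genes 12 were called higher in P, and of the 15 lowest 12 were called lower. These genes were chosen for their size in M, so a smaller value in P is no sign of a difference.

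The test of the difference itself called 0 of 26383 probe sets (limma, 0%), although 1135 had an unadjusted p under 0.05 (4.3%). Nearest to a call were DIPK2A (-1.29 ± 0.25 in M minus P), SMARCD1, a chromatin remodelling subunit (-2.01 ± 0.39), SMIM5 (-1.23 ± 0.29), PCDH20, a protocadherin (-1.41 ± 0.35), and CAPZA2, an actin capping subunit (-1.09 ± 0.27). Each had an adjusted p of 0.996. DIPK2A read 39.0, 43.5 and 28.3 in M neurons against 150, 159 and 111 in M layers, and its difference in P was -0.27. FGFR3 stood at -1.62 in M and -1.002 in P, a difference of -0.62 ± 0.18 with an unadjusted p of 0.00305 that did not pass the adjustment.

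**Figure D5:**
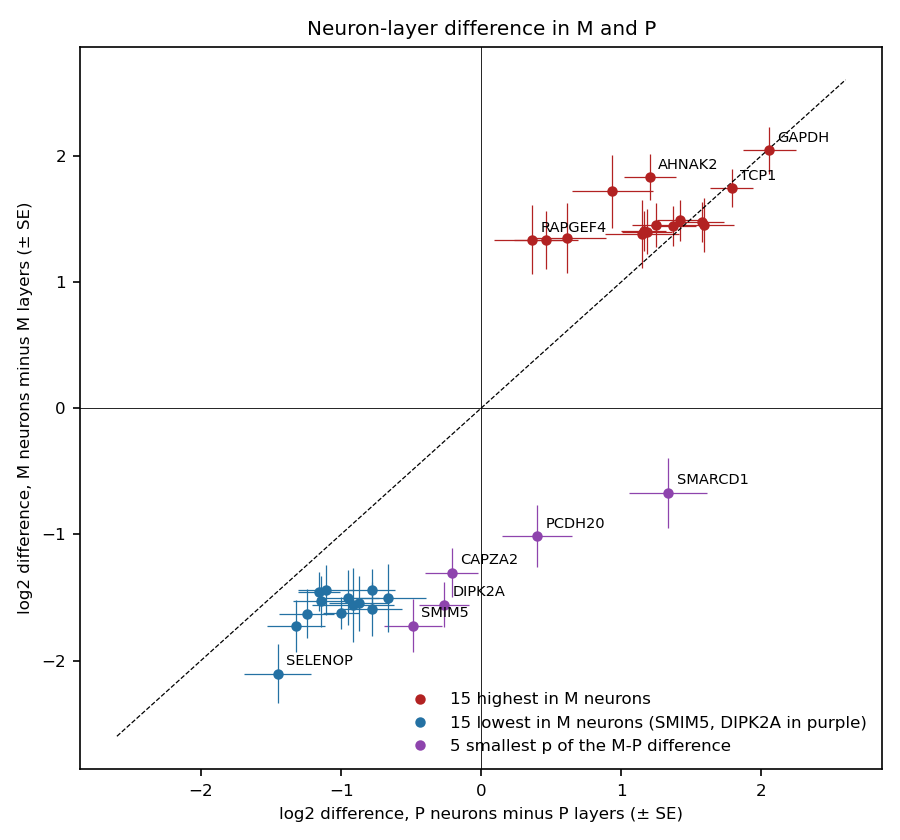
Log2 difference of neurons minus layers in P (x axis) against M (y axis), each ± SE, for the 15 highest and 15 lowest genes in M and the 5 genes with the smallest p for M minus P. GAPDH and TCP1 lie on the dashed line of equal differences, SMARCD1 and PCDH20 have opposite signs in M and P, and no difference between M and P passed the adjustment.

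Genes called higher were brighter than those called lower. Their median mean signal over the 12 rhesus arrays was 282, against 134 for genes called lower and 85.3 for all tested genes. Probe sets whose name ends in _s_at or _x_at, which may detect several transcripts or genes, made up 14.6% of the genes called higher, 8.57% of those called lower and 9.63% of all tested genes. The GAPDH probe set was one of them. For 7 genes called higher another probe set was lower, and for 8 called lower another was higher.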

How the data were processed

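RNA of laser-captured vervet tissue was measured on 12 rhesus arrays in 4 groups of 3, and 2 human arrays, whose labels conflict on what was captured, were not used. The authors deposited intensity values, 1 MAS5 signal per probe set on a linear scale, per the submitters' processing notes. MAS5's version and its scaling target are not stated in the sources. The vervet RNA was read by probes designed for rhesus, so a mismatch can dim a probe set in all arrays alike, and levels were compared only within a probe set. The number of arrays limits the precision. Of 52865 probe sets 99 controls were left out, and among the rest 24956 carried 1 gene symbol in GEO's platform annotation, 361 several and 27449 none.

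Each array was scaled to a median of 13.5. Probe sets with a mean scaled signal of at least 12.61, the median of all, were tested (26383). limma 3.58.1 in R 4.3.3 (lmFit, eBayes with an intensity trend) was fitted on log2(signal + 16) with 4 group means over the 12 arrays, with 8.908 prior and 8 residual degrees of freedom. Each test was two-sided, with Benjamini-Hochberg adjustment over all probe sets tested and a threshold of 0.05. The script was tested on simulated data. A gene was represented by its brightest probe set.

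A set of 161 genes was followed through all alternative fits, and not all of them are named in the text. It held the 15 highest and 15 lowest called genes without overlap between the groups, and up to 4 genes per list in order of p. It also held the 5 with the smallest p for M minus P, and a panel of defining markers. Of 862 genes in the lists and the panel 477 were tested. The arrays were picked by title, but this comparison and the gene lists were chosen with earlier results of these data known. Fluidics stations were read from the instrument records. Same-numbered M arrays deviated together from their group means (r from 0.157 to 0.200 in the 3 pairs), so the replicate numbers, taken from the titles, were treated as pairs in a separate fit. Other alternatives were pseudocounts of 1 and 64, no or a stricter signal filter, no scaling, centring of log values, quantile normalization, the 6 M arrays alone, no intensity trend, station as a block, each M array left out, and the mean over the probe sets of a gene. No sequences are printed.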

Additional observations from a re-analysis of the deposited data

How the results depend on the processing

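The 3559 probe sets and 1705 genes called in M changed most with fluidics station as a block, to 230 probe sets and 99 genes. Of the 106 called genes among the 161 followed, 79 lost their calls. The 3949 probe sets called in P became 232 with that block and 2205 after quantile normalization. Quantile normalization also left 670 genes higher in M, against 1250. Leaving out each M array gave 2258 to 3331 probe sets and 1088 to 1577 genes, lowest without M_neuron 3 and without M_layer 1 (2334 and 1111). Other settings gave 2418 probe sets (the 6 M arrays alone) to 4697 (replicate block). The replicate block, which uses the pairing of the numbers, called 2229 genes, including all 1705. It added 12 calls among the genes followed, those given with it in the text and NRN1, EMCN and B2M, and changed no other. The difference between M and P had 0 called probe sets by limma under all alternatives run, with 602 to 2587 at an unadjusted p under 0.05.

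Among the genes followed, signs turned only for those that were not called. With station as a block these were NEFH (-0.0372), ALAS2 (-0.0994), ANPEP (-0.131), PVALB (-0.398), NR4A2 (0.0159), PTPRZ1 (0.0383), GPR17 (0.0410), HIGD1B (0.0506), GRIK1 (0.0678), HTR7 (0.128) and COL3A1 (0.326). COL3A1 also turned without scaling (0.0258), after centring log values (0.0077) and with a pseudocount of 1 (0.0067). GRIK1 turned without scaling (0.0368) and after centring log values (0.0187), SYT1 without scaling (0.0111) and as the mean over probe sets (0.533), ANPEP as that mean (-0.0397), and GLRB after quantile normalization (-0.0015). Leaving out single arrays gave ranges that cross 0 for FOS (-0.0189 to 0.580), COL3A1 (-0.151 to 0.129), ALAS2 (-0.170 to 0.468), AIF1 (-0.292 to 0.117), HBB (-0.152 to 0.404), GRIK1 (-0.237 to 0.126), SERPING1 (-0.364 to 0.0437), GRIA1 (-0.553 to 0.197), GAD2 (-0.397 to 0.0011) and SYT1 (-0.0787 to 0.0333). The cause was not tested.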

Other observations

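Further gene families, chosen by symbol after the values were seen and given without a test, are read against 12.5% of all genes higher and 4.54% lower. Mitochondrial ribosomal proteins, which make the few proteins coded by mitochondrial DNA, had 32 of 61 members higher (52.5%) and 1 lower, with a median difference of 0.53 on the log2 scale. MRPS34 stood at 1.25 ± 0.16 and MRPL23 at 1.06 ± 0.16, and the lower member was MRPL44. After quantile normalization 18 were higher, and with station as a block 0. Of 13 subunits of clathrin adaptors, which select cargo for vesicles, 6 were higher and 0 lower (median 0.59), with AP2S1 at 1.23 ± 0.18 and AP3B2 at 0.83 ± 0.18 beside AP2M1. With station as a block AP2M1 alone kept its call and the median was 0.04. Citric acid cycle enzymes had 5 of 11 higher and 2 lower. MDH2, the mitochondrial malate dehydrogenase, had means of 2092 and 1069 (0.96 ± 0.11), while FH, fumarase, stood at -0.52 ± 0.15.

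Of 7 subunits of the vacuolar proton pump 3 were higher (42.9%) and 1 lower, with a median of 0.41, ATP6V0B at 1.28 ± 0.15 and ATP6V0E1, the lower member, at -1.05 ± 0.17. None of these subunits, the citric acid cycle enzymes or the ZNF genes was called with station as a block. Of 214 genes with a ZNF symbol, mostly DNA-binding zinc finger proteins, 8 were higher (3.74%) and 0 lower, with a median of 0.10. Of 11 SOX transcription factors 0 were higher and 3 lower, among them SOX2, a factor of glia and progenitors, at -0.78 ± 0.12 and SOX4 at -0.94 ± 0.19, and none was called with station as a block.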
